A study of Mus musculus with 3 samples.

Results

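Matricellular proteins are secreted into the extracellular matrix but mainly signal to cells rather than bear load. They bind integrins, CD44 and other surface receptors, collagens and growth factors, and their genes are known to be switched on in wounds, developing tissue and tumour stroma. Fibronectin is a structural and adhesive glycoprotein whose fibrils carry many of them. The genes described here are 10 named members of this group: Spp1, Sparc, Sparcl1, Postn, Tgfbi, Thbs1, Thbs2, Thbs3, Tnc and Fn1. They were taken by symbol with no cut-off on their values, but the list was chosen with earlier results of these data known. All 10 were found among the 21881 gene symbols of each file.

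Total RNA had been sequenced from 3 tumours that grew from the NDL(UCD) line, an ErbB2-driven mouse mammary cancer line kept by transplantation, in 3 different female mice. Cultured cells went into uncleared mammary fat pads of FVB/NJ mice (6 to 8 weeks of age), and snap-frozen pieces of tumours at most 5 to 10 mm wide were used. The labels name no treatment and no second genotype, so there is 1 group of n = 3 and no normal or untreated tissue beside it. All tumours come from 1 line and hold host stroma, vessels, immune cells and fat pad beside the injected cells, and the labels do not give the pad each came from. Levels are FPKM, mapped fragments scaled by transcript length and by library size, so levels of different genes can be set side by side. In units of 1e6 fragments, the deposited intervals imply depths of 11.7, 12.4 and 13.4 for tumours 1, 2 and 3. Of the epithelial markers 8 of 8 were above 1 FPKM by the rule given below, beside 54.2% of all symbols tested. This count alone does not show the labelled mammary origin.

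Of the 10 genes, 9 were above 1 FPKM by limma (Benjamini-Hochberg adjusted p under 0.05), and Thbs3 was not separated from that level. Of all 18028 symbols tested, 54.2% were above 1 FPKM by the same rule and 32.5% below. Calls above made up 62.5% of these calls, and 73.4% when each tumour was scaled to a total of 1000000. The median level of the 10 genes was 37.3 FPKM, beside 2.44 FPKM over all symbols tested. Spp1 led, Sparc followed, and a middle group from Postn to Tgfbi lay between 55.6 and 18.8 FPKM on average.

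**Figure D1:**
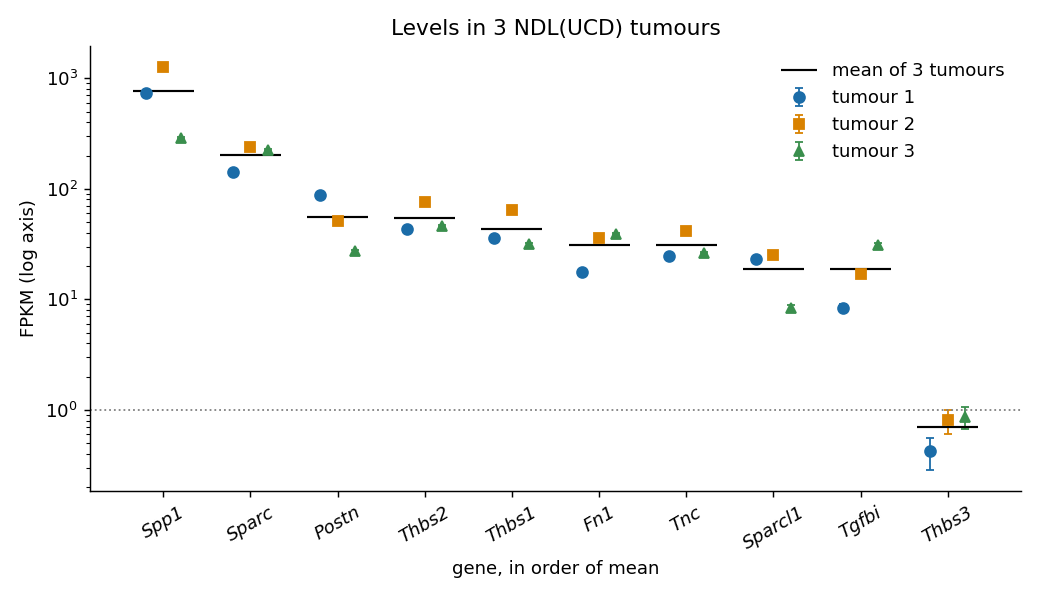
FPKM (log axis) of the 10 genes in order of mean, with 1 point per tumour, deposited interval bounds as bars and the mean over 3 tumours as a horizontal line; the dotted line is 1 FPKM. Spp1 lies above all other genes in each tumour, from 287 to 1275 FPKM, and Thbs3 lies below 1 FPKM in each.

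The genes with the largest differences between tumours that have a promoter in the RefSeq table used here were Spp1, Tgfbi and Postn, and each had a different order of the 3 tumours. Their upstream sequences, 250 bases up to the base before the annotated start (RefSeq, GRCm38.p6, 5′ to 3′ on the gene's strand), are shown to set these genes side by side. Capitals mark matches on either strand to the TATA-box core TATAAA, to the CAAT-box core CCAAT and to the GC-box core GGGCGG, so that a match on the other strand shows as its reverse complement. Spp1 is on the plus strand at chr5:104434861-104435110, Tgfbi on the plus strand at chr13:56609336-56609585 and Postn on the plus strand at chr3:54360857-54361106.
Spp1: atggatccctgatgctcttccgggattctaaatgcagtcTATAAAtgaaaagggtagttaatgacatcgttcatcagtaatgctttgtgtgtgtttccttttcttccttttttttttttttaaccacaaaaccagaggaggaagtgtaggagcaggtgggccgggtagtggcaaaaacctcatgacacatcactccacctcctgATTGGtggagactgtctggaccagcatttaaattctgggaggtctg
Tgfbi: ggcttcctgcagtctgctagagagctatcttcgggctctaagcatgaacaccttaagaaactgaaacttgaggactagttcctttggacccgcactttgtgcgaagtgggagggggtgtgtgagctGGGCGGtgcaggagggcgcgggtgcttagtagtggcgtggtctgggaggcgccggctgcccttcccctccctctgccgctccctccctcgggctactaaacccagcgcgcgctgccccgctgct
Postn: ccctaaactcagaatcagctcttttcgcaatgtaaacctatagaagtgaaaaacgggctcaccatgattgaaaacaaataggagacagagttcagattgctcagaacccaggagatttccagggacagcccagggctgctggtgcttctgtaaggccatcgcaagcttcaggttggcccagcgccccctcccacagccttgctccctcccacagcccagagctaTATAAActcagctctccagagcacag

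The windows differ in composition. The Tgfbi window holds 15 CG dinucleotides at 62.4% GC, the Spp1 window 3 at 43.6% GC and the Postn window 4 at 52% GC, beside a median of 6 CG over 32851 windows of all genes. In Postn the TATAAA lies 26 to 21 bases before the start. In Spp1 it lies 211 to 206 bases before the start, and the CCAAT on the other strand lies 46 to 42 bases before it. Of the 10 genes, 7 matched the promoter table. TATAAA was found in 4 of those 7 windows and in 12.4% of all windows, CCAAT in 3 of 7 and 33.9%, and GGGCGG in 3 of 7 and 32.7%. These counts take a match at any position and on either strand. In Tnc and Thbs2 the TATAAA lies 126 to 121 bases before the start, in Thbs2 on the other strand, so the Postn match is the nearest to a start. The AP-1 sequence TGANTCA was found in 0 of 7 and in 6.75% of all windows. None of the marked matches overlapped another. The matches are of letters only, and no binding was measured.

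Spp1 encodes osteopontin, a secreted phosphoprotein that binds integrins and CD44 and is made by macrophages and by epithelial and bone cells. The locus spans 104864137 to 104870069 of mm9 chromosome 5. Its level was 733 FPKM in tumour 1, 1275 in tumour 2 and 287 in tumour 3. Tumour 3 was the lowest by a wide margin, and the deposited intervals of the 3 tumours did not overlap. The mean was 765 ± 495 FPKM (SD, n = 3; limma adjusted p = 2.0e-07 against 1 FPKM). Among the 21054 symbols with a locus of at least 300 bp, Spp1 ranked 19th, 14th and 114th in tumours 1, 2 and 3. Spp1 made up 65.7% of the summed FPKM of the 10 genes in tumour 1, 69.8% in tumour 2 and 39.8% in tumour 3. The summed FPKM was 1115, 1826 and 721, and without Spp1 it was 382, 551 and 434, so most of the difference in the sum was in Spp1.

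**Figure D2:**
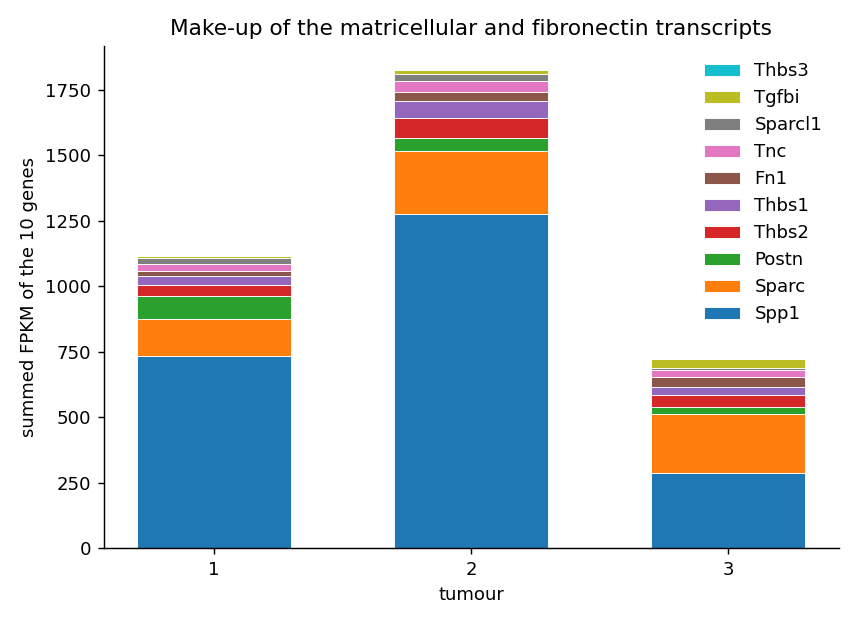
Summed FPKM of the 10 genes in each tumour, stacked by gene from Spp1 at the bottom to Thbs3 at the top (one library per tumour, no error bar). The Spp1 block runs from 287 FPKM in tumour 3 to 1275 in tumour 2, while the Sparc block stays between 141 and 240.3 FPKM.

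Spp1 belongs to a cluster of genes for mineralised-tissue phosphoproteins that lies beside Sparcl1 on mm9 chromosome 5. The gap between the Sparcl1 and Spp1 loci is 321029 bp and holds 4 annotated genes, named here for their position after their values were seen. Dspp, Ibsp and Mepe, which encode dentin and bone matrix proteins, were listed at 0 in all 3 tumours. Dmp1, the dentin matrix protein 1 gene, was at 0.0399, 0.0276 and 0.0124 FPKM. The next gene beyond Spp1, the polycystin gene Pkd2, starts 18407 bp further on and was at 6.47 ± 2.08 FPKM (SD, n = 3). The high level of Spp1 was not shared by its neighbours.

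Sparc encodes osteonectin, a collagen-binding glycoprotein of fibroblasts, endothelium and bone, and Sparcl1 its paralogue hevin. Sparc was at 141, 240.3 and 224 FPKM in tumours 1, 2 and 3, respectively (55208003 to 55233582 of mm9 chromosome 11; mean 202 ± 53.3, SD, n = 3; limma adjusted p = 1.1e-07). It was lowest in tumour 1, and its rank moved little, from 129th to 161st. Sparcl1 was at 23.3, 25.4 and 8.30 FPKM (mm9 chromosome 5, 104508128 to 104543107; mean 19.0 ± 9.31, SD, n = 3). Tumours 1 and 2 lay close together and tumour 3 lay at 0.356 times the level of tumour 1. On the log2(FPKM + 0.1) scale Sparc exceeded Sparcl1 by 3.52 ± 1.10 (SD, n = 3), 11.5-fold, and by 6.02-, 9.44- and 26.6-fold in tumours 1, 2 and 3.

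Postn and Tgfbi encode periostin and the TGF-beta-induced protein, relatives that share fasciclin domains and bind integrins and collagen. Postn was at 88.6, 51.1 and 27.1 FPKM in tumours 1, 2 and 3, respectively (54165029 to 54194963 of mm9 chromosome 3; mean 55.6 ± 31.0, SD, n = 3). Tgfbi was at 8.37, 16.9 and 31.2 FPKM (mm9 chromosome 13, 56710964 to 56740700; mean 18.8 ± 11.6, SD, n = 3). The 2 genes thus had opposite orders of the tumours, with Postn highest and Tgfbi lowest in tumour 1. Postn exceeded Tgfbi 10.5-fold in tumour 1 and 3.01-fold in tumour 2, and was at 0.87 times its level in tumour 3. Over the tumours the log2 difference was 1.59 ± 1.80 (SD, n = 3), positive in 2 of 3, so their order was not separated from the spread between tumours (exact two-sided sign-flip permutation test, p = 0.50, adjusted p = 0.65 over 13 pairs).

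The thrombospondins are secreted glycoproteins. Thbs1 and Thbs2 form trimers that bind CD47 and CD36 and are known to restrain vessel growth, and Thbs3 belongs to the pentameric subgroup of cartilage and tendon. Thbs1 was at 35.7, 63.9 and 31.5 FPKM in tumours 1, 2 and 3, respectively (117937658 to 117952869 of mm9 chromosome 2; mean 43.7 ± 17.6, SD, n = 3). Thbs2 was at 42.9, 75.4 and 46.4 FPKM (mm9 chromosome 17, 14802507 to 14831269; mean 54.9 ± 17.8, SD, n = 3). Both were highest in tumour 2, and Thbs2 exceeded Thbs1 in 3 of 3 tumours, by 0.35 ± 0.18 log2 units or 1.28-fold. Thbs3 was at 0.422, 0.806 and 0.861 FPKM (mm9 chromosome 3, 89019109 to 89030759), on only 37, 68 and 81 implied fragments. Its mean of 0.696 ± 0.239 FPKM (SD, n = 3) was not separated from 1 FPKM (limma adjusted p = 0.14). Thbs1 exceeded it 54.2-fold and Thbs2 69.2-fold. The pseudocount matters for such a low gene, and with a pseudocount of 1 the log2 difference between Thbs2 and Thbs3 was 5.01 in place of 6.11.

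Tnc encodes tenascin-C, a hexameric glycoprotein of remodelling matrix that modulates adhesion to fibronectin. It was at 24.7, 41.6 and 26.3 FPKM in tumours 1, 2 and 3, respectively (63620819 to 63708049 of mm9 chromosome 4; mean 30.9 ± 9.31, SD, n = 3). Fn1, the fibronectin gene, was at 17.6, 36.0 and 39.1 FPKM (mm9 chromosome 1, 71632097 to 71699745; mean 30.9 ± 11.6, SD, n = 3). Tnc was highest in tumour 2 and Fn1 lowest in tumour 1. Their mean levels did not differ beyond the spread, with Fn1 minus Tnc at -0.04 ± 0.54 log2 units (SD, n = 3), positive in 1 of 3 tumours. FPKM per symbol does not separate the splice forms for which both genes are known.

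In order of mean the genes were Spp1, Sparc, Postn, Thbs2, Thbs1, Fn1, Tnc, Sparcl1, Tgfbi and Thbs3. Of the 9 neighbouring pairs in this order, 5 kept 1 sign in all 3 tumours: Spp1 above Sparc, Sparc above Postn, Thbs2 above Thbs1, Tnc above Sparcl1 and Tgfbi above Thbs3. The margin of Spp1 over Sparc was 5.21- and 5.30-fold in tumours 1 and 2 but 1.28-fold in tumour 3. The other 4 pairs, Postn and Thbs2, Thbs1 and Fn1, Fn1 and Tnc, and Sparcl1 and Tgfbi, changed sign between tumours, and their order is not separated. With 3 tumours the exact sign-flip permutation test cannot go below p = 0.25, so no pair could pass 0.05. Without tumour 3 the number was 8 of 9, although with fewer tumours it can only stay or rise.

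Cochran's Q, computed for each gene from the deposited intervals, compared the 3 libraries beyond fragment counting, and not conditions. All 9 genes whose mean reached 1 FPKM passed the Q test, as did 90.5% of all 11193 genes tested, so a ratio of highest to lowest tumour of at least 2 was also required. By both criteria 6 of the 9 were called, beside 32.1% of all genes tested. The ratios were 4.44 for Spp1, 3.73 for Tgfbi, 3.27 for Postn, 3.06 for Sparcl1, 2.21 for Fn1 and 2.03 for Thbs1, and 1.68 to 1.76 for Tnc, Sparc and Thbs2. The median ratio was 2.21 over the 9 genes and 1.75 over all genes tested. Tumour 2 was highest for the called genes Spp1, Thbs1 and Sparcl1 (3.60% of all genes tested were called with tumour 2 highest). For Sparcl1 this direction turned, with tumour 1 above tumour 2 at 27.0 and 24.1 on the median-of-ratios scale, at 73.1 and 67.5 with totals of 1000000, and with the trends described below removed. Tumour 1 was highest for Postn (15.5% of all genes tested), and tumour 3 for Tgfbi and Fn1 (13.0%). Single tumours decided several calls. Without tumour 3 the ratio fell below 2 for Spp1 (1.74), Postn (1.74), Thbs1 (1.79) and Sparcl1 (1.09). Without tumour 1 it fell below 2 for Postn (1.88), Tgfbi (1.85) and Fn1 (1.09), and without tumour 2 for Thbs1 (1.14).

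Base composition moved with some of these differences. Across all genes the deposited FPKM differed between tumours along GC content and transcript length, and removing these trends lowered the share of genes called from 32.1% to 15.5%. Spp1 (43.3% GC) and Postn (44.1%) had the lowest GC content of the 10 transcripts. With the trends removed Postn was at 70.9, 50.3 and 34.6 FPKM and Tgfbi at 11.1, 15.4 and 25.8 FPKM, with ratios of 2.05 and 2.33. Both kept the order of their tumours, and Postn then exceeded Tgfbi in 3 of 3 tumours. Spp1 was at 577, 1273 and 365 FPKM, a ratio of 3.48, and Sparcl1 at 25.4, 23.7 and 8.19 FPKM, a ratio of 3.10. Fn1, at 21.7, 35.1 and 32.7 FPKM, was no longer called at a ratio of 1.62, and Sparc became nearly level at 187, 219.6 and 184 FPKM. Thbs1 kept a ratio of 2.05, and 5 of the 9 genes were called. With each tumour scaled to a total of 1000000, Thbs1 and Fn1 both lost their calls, at ratios of 1.97 and 1.94. Fn1 also lost its call with median-of-ratios scaling, at a ratio of 1.74, where tumour 1 had a scaling factor of 0.862 beside 1.05 and 1.10. With that scaling 5 of the 9 genes were called, beside 27.7% of all genes tested.

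**Figure D3:**
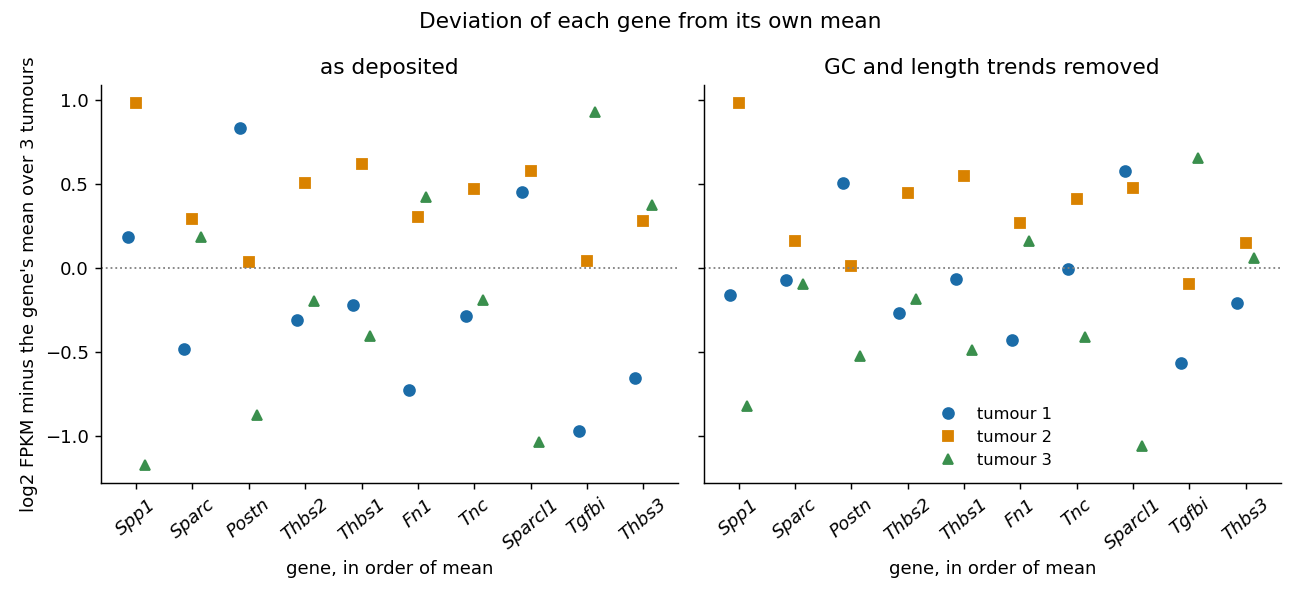
Deviation of log2 FPKM of each gene from its own mean over 3 tumours, with 1 point per tumour, as deposited (left) and with GC and length trends removed (right). Tumour 3 is lowest for Spp1, Postn, Sparcl1 and Thbs1 and highest for Tgfbi in both panels. The points for Sparc draw together once the trends are removed.

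Several stromal cell types make these proteins, and in bulk RNA fewer cells of a type and less RNA per cell cannot be told apart. Fibroblast markers, of which 11 of 12 were above 1 FPKM, summed to 207, 358 and 316 FPKM in tumours 1, 2 and 3. Over all symbols tested 54.2% were above 1 FPKM, a share that stands beside each such count in the marker lists. Their highest members were Col3a1 at 98.9 ± 35.6, Col1a2 at 75.7 ± 23.9 and Col1a1 at 43.4 ± 11.1 FPKM (SD, n = 3), and these 3 carry much of the sum. Other members, named after their values were seen, ran the other way, highest in tumour 1. They were Dcn at 17.2, 10.0 and 10.8, Lum at 10.5, 5.66 and 5.74 and Fap at 2.03, 1.78 and 0.661 FPKM. With the trends removed tumour 1 was no longer the highest for any of them. Dcn was then at 13.0, 10.1 and 14.2, Lum at 7.26, 5.86 and 8.01 and Fap at 1.38, 1.85 and 0.936 FPKM. The sum over the 12 fibroblast markers was then 245, 339 and 276 FPKM. Relative to the mean log2 level of these markers, Tnc (1.51 ± 0.18), Sparc (4.22 ± 0.19) and Thbs2 (2.34 ± 0.20) varied least between tumours, as log2 differences with SD over n = 3. Spp1 (5.94 ± 1.01), Postn (2.24 ± 1.02), Sparcl1 (0.70 ± 0.92) and Tgfbi (0.65 ± 0.83) varied most. A small SD was not limited to the fibroblast list, since Sparc minus the epithelial marker mean was 1.00 ± 0.19 log2 units.

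Macrophage markers, all 10 of 10 above 1 FPKM, summed to 295, 542 and 1002 FPKM, highest in tumour 3 where Spp1 was lowest. They were led by Lyz2 (326 ± 243 FPKM), C1qa (111 ± 60.4) and Cd14 (52.4 ± 15.9; SD, n = 3). Lyz2, at 146, 230 and 602 FPKM, carried much of the sum. Cd14, at 35.5, 67.1 and 54.5 FPKM, was the only one of the 10 macrophage markers that was not highest in tumour 3. Relative to these markers Fn1 (0.31 ± 0.23 log2 units) and Tgfbi (-0.52 ± 0.25) varied little, while Spp1 was 5.70, 5.66 and 2.94 log2 units above them in tumours 1, 2 and 3. Epithelial markers, led by Krt18, Epcam and Erbb2, summed to 1008, 1390 and 1330 FPKM, and Spp1 exceeded their mean by 3.18, 3.58 and 1.39 log2 units. Krt18 was at 366, 643 and 569 FPKM, whereas Epcam (205, 202 and 198) and Erbb2 (200, 195 and 190) were nearly level. With the trends removed the order of the epithelial sums turned, to 1377, 1272 and 1056 FPKM, highest in tumour 1. Adipocyte markers, 2 of 7 above 1 FPKM, summed to 62.1, 46.4 and 199.8 FPKM, highest in the tumour with the least Spp1, Sparcl1, Postn and Thbs1. Fabp4, at 55.7, 41.6 and 172.8 FPKM, carried most of that sum. With the trends removed Fabp4 was at 35.7, 45.0 and 245 FPKM. Pericyte and smooth muscle markers summed to 50.9, 125 and 104 FPKM, with 4 of 8 above 1 FPKM. Endothelial markers, 5 of 8 above 1 FPKM, summed to 18.8, 28.9 and 27.4 FPKM. Platelets also carry thrombospondin 1, and of 5 platelet markers 3 were below 1 FPKM and the other 2, Pf4 (2.94 ± 2.33 FPKM) and Itga2b (0.598 ± 0.124 FPKM; SD, n = 3), were not separated from it. The part of any of these cell types in the differences between tumours was not tested.

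**Figure D4:**
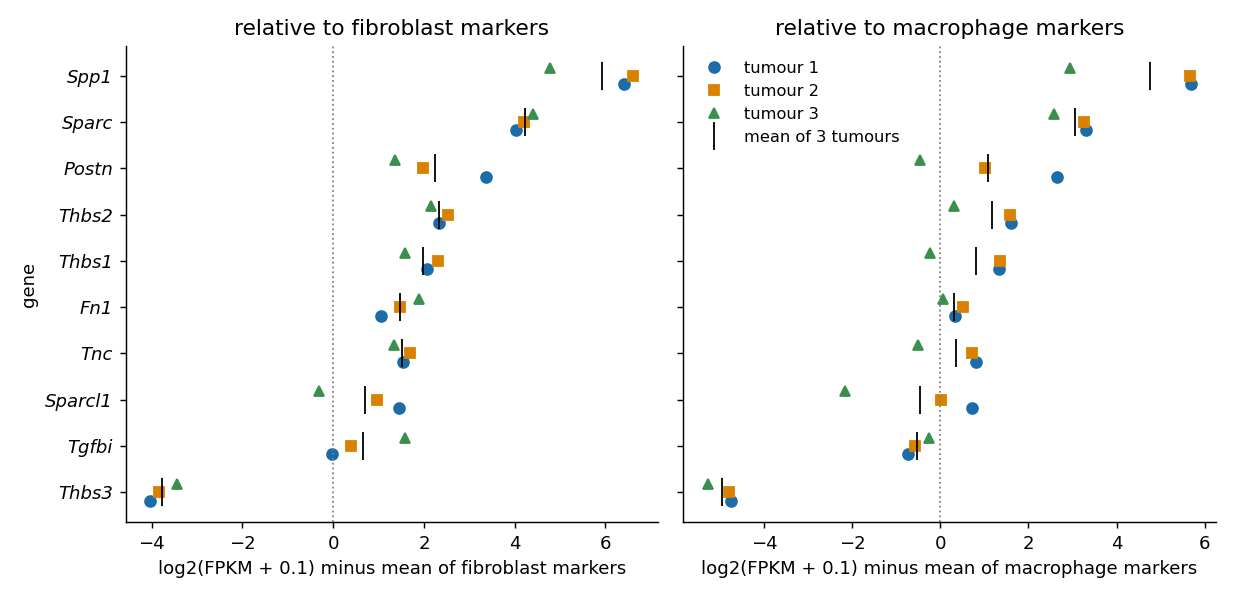
Level of each gene minus the mean of 12 fibroblast markers (left) or 10 macrophage markers (right) on the log2(FPKM + 0.1) scale, with 1 point per tumour and the mean over 3 tumours as a black bar. The points of Sparc, Thbs2 and Tnc stay close together on the left. Tumour 3 is the lowest in both panels for Spp1, Postn, Sparcl1, Thbs2, Thbs1 and Tnc. On the right it is the lowest for every gene but Tgfbi.

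Within the fixed lists, the genes with the most similar pattern over the 3 tumours were found by the Euclidean distance between log2 deviations, among 75 candidates averaging 5 FPKM or more. With only 3 tumours such a likeness is a description. The distances use FPKM as deposited, with GC and length trends left in. GC content was close for some matches below, such as Postn (44.1%) with Itgb1 (44.8%) and Itga8 (44.0%). It was less close for others, such as Tgfbi (52.9%) with C1qa (59.5%). The part of base composition in these distances was not tested. Fn1 was closest to the collagen gene Col3a1 (distance 0.045) and Cyr61 (0.052), Tgfbi to the complement gene C1qa (0.237) and the scavenger receptor gene Lrp1 (0.280). Postn was closest to the integrin genes Itgb1 (0.252) and Itga8 (0.383), and Thbs1 to Thbs2 (0.252) and Tnc (0.268). Spp1 was closest to Sparcl1 (0.508) and the cross-linking enzyme gene Lox (0.720), the largest distances of these, and Sparcl1 to Lox (0.226) and Itgb1 (0.467). Thbs3 was closest to Krt8 (0.052) and Cd47 (0.114), but on only 37, 68 and 81 implied fragments. Its mean was under 1 FPKM, so it was not tested for a difference between tumours. The 75 candidates leave out the gene itself, except for Thbs3, which averaged under 5 FPKM and was not in the pool.

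Of 21 receptors and partners of these ligands, 16 were above 1 FPKM and 1 below, beside 54.2% and 32.5% of all symbols tested. Their median level was 6.94 FPKM. The heparan sulphate proteoglycan Sdc4, a fibronectin and tenascin co-receptor, was at 207 ± 68.5 FPKM, the integrin subunit Itgb1 at 78.9 ± 36.3 FPKM and Itgb5, a partner of Itgav, at 38.1 ± 15.1 FPKM (SD, n = 3). Named for their known role after their values were seen, the osteopontin receptor Cd44 was at 32.8 ± 6.81 FPKM, the thrombospondin receptor Cd47 at 11.4 ± 3.00 FPKM and Itgav at 15.6 ± 0.959 FPKM. Itga5, the alpha subunit of the classical fibronectin receptor, was not separated from 1 FPKM at 1.18 ± 0.49 FPKM. In the Q and ratio test 11 of 18 tested receptors were called, beside 32.1% of all genes tested, but 2 of 18 beside 15.5% with trends removed. Itgb1 was at 113, 82.9 and 40.7 FPKM in tumours 1, 2 and 3, the order seen for Postn, and at 94.4, 81.2 and 50.3 FPKM with trends removed, where its ratio of 1.88 was no longer called.

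Of 27 other matricellular and adhesive matrix genes, 11 were above 1 FPKM, 8 below and 8 not separated from it. Over all symbols tested 54.2% were above and 32.5% below, and these shares also stand beside the level counts of the lists that follow. The median level of the 27 genes was 1.15 FPKM. Igfbp7 (73.5 ± 26.3 FPKM), Fstl1 (29.7 ± 5.19 FPKM), a Sparc relative, and Fbln2 (20.5 ± 9.13 FPKM), a fibronectin-binding fibulin, led the list (SD, n = 3). Of the other pentameric thrombospondins, named after their values were seen, Thbs4 was at 2.43 ± 1.39 and Comp at 0.807 ± 0.388 FPKM. Of 9 TGF-beta ligands, receptors and binding proteins, a pathway known to induce Tgfbi, Postn and Fn1, 8 were above 1 FPKM. Tgfb3 led at 109.6 ± 17.4 FPKM, followed by Tgfbr2 at 24.3 ± 5.46 and Ltbp3 at 12.2 ± 3.20 FPKM. Of the 9, 2 were called between tumours, beside 32.1% of all genes tested, and 0 beside 15.5% with trends removed. Of 13 processing and cross-linking enzymes 10 were above 1 FPKM, led by Loxl3 (25.0 ± 2.60 FPKM), Mmp2 (16.4 ± 5.93) and Mmp14 (13.1 ± 2.72), and 7 of 11 tested were called between tumours, beside 32.1% of all genes tested, or 3 of 11 beside 15.5% with trends removed.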

How the data were processed

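The authors deposited FPKM for each gene together with interval bounds and a status column, per the file headers. TopHat, Cufflinks and mm9 are named in the submitters' processing notes, without roles. Versions, annotation release and strandedness of counting: not given in the sources used here. Libraries were directional and rRNA-depleted, per the labels' protocols. Repeated symbols (221) were summed, and 182 symbols whose status was not OK were left out. Standard errors were taken as the upper half-width divided by 2, and implied fragments as the squared ratio of FPKM to it, which covers counting error only. Tumours were numbered in accession order.

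Levels were tested against 1 FPKM with limma 3.58.1 (R 4.3.3) on log2((FPKM + 0.1)/(1 + 0.1)), intercept only, with trend and robust moderation, over all symbols listed above 0. Cochran's Q (2 degrees of freedom) was run on genes whose mean reached 1 FPKM, with Benjamini-Hochberg adjustment; a tumour listed at 0 took the largest standard error of that gene (no member needed this). Pairs were compared on log2(FPKM + 0.1) by an exact sign-flip test. GC and length trends were removed per tumour by lowess (span 0.3, statsmodels 0.14.6) on the longest coding transcript in GENCODE vM21, matched by name for 98.3% of symbols. Where RefSeq lists several starts, the promoter that fits the locus length was used. The limma, Q and trend-removal steps were run on simulated data, and the sign-flip test was not. The Q simulation held counting error and a set change in chosen genes, with no other variation between libraries. Coordinates are mm9, counted from 1, except promoters.

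Members, lists and alternatives were chosen with earlier results of these data known. Named genes are all members, the 3 highest of each list (values are given for the main lists) and the 2 nearest in pattern; others are marked as chosen after their values were seen.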

Additional observations from a re-analysis of the deposited data

How the results depend on the processing

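The count of 9 genes above 1 FPKM was the same under pseudocounts of 1 and 0.01, a filter at 0.5 FPKM, median-of-ratios scaling, removal of GC and length trends, limma without trend and robust moderation, and without each tumour. Median-of-ratios scaling moved the median gene by only 0.0020 log2 units and trend removal by 0.0003. Trends were taken on deviations from each gene's own mean over the tumours. Neither setting could thus move this count much, and neither bears on GC or length bias shared by the tumours. Scaling each tumour to a total of 1000000 moved the median gene by 1.46 log2 units and put Thbs3 above 1 FPKM, at 0.85 log2 units in place of -0.52, which made 10. With trends removed Thbs3 was called below 1 FPKM (limma adjusted p = 0.045). Over all alternatives for Thbs3 the adjusted p ran from 0.033 to 0.46. The count of 6 genes called between tumours was 4 or 5 under the scalings and trend removal. It was 9 with a ratio of at least 1.5, where the median ratio over all genes tested, 1.75, was already above that limit. It was 2 to 5 when 1 tumour was left out, where fewer tumours can only narrow the range. No share over all genes is given for the ratio of 1.5, the total of 1000000 or the left-out tumours. Those counts therefore cannot be read as particular to these genes. Pairs of 1 sign numbered 5 to 8 with 1 tumour left out, where the number can only stay or rise. Thbs3 is limited by its 37 to 81 fragments, and every comparison by 3 tumours. No paired analysis was possible because there is 1 group.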
